A study of Homo sapiens with 2 samples.

Results

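Ferroportin and 7 other genes that move, store or sense iron were followed in SBC5, an established human small cell lung cancer cell line. The members are SLC40A1 (ferroportin), TFRC, SLC11A2, STEAP3, FTH1, FTL, IREB2 and ACO1, taken by name from the deposited table. All 8 had a locus there, 1 each, among 12494 gene names, and all 8 were among the 12405 genes that reached 1 FPKM in at least 1 library. FPKM is a fragment count scaled to the length of the locus and to the size of the library. The set was chosen by role, with the resistant to parental ratios of these 2 libraries, above all that of SLC40A1, already known, so the differences below are a description of these libraries. One group was parental SBC5. The other was a cisplatin-resistant derivative of it, made by raising the cisplatin concentration through 1, 2, 4 and 20 µg/ml. Cisplatin is a platinum drug that crosslinks DNA. Both were grown in the same serum-supplemented medium. Whether the drug was present at harvest, and whether the resistant line is a clone or a pool, is not stated in the labels. Each group had 1 library of polyadenylated RNA, so no value has a replicate error and no test was possible.

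Iron enters most cells bound to transferrin, which the transferrin receptor (TFRC) carries into endosomes. There the ferrireductase STEAP3 reduces the metal and the transporter SLC11A2, also called DMT1, passes it to the cytosol. Iron that is not used is held in ferritin, a shell of FTH1 and FTL chains, or leaves the cell through ferroportin, the iron exporter of vertebrate cells. The iron regulatory proteins encoded by ACO1 and IREB2 bind iron-responsive elements when iron is scarce. Binding near the start of the ferritin and ferroportin mRNAs blocks their translation, and binding in the end region of the TFRC mRNA protects it from decay. Translation is not read by RNA levels.

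The elements bound by these proteins were located first. The members were chosen by role, and several of their mRNAs are known for these elements, as given above. Their cores are thus a description, and the shares of all genes printed beside them are no test of the set. A core was taken as a bulged C, 5 bases, the 6-base loop CAGTGN and 5 further bases that pair with the first 5, with G-T pairs allowed, in annotated UTRs of GENCODE release 29 and on the transcript strand only. In the 5′ UTR, SLC40A1, FTH1 and FTL held 1 core each, against 31 of 18672 genes searched (0.166%). In the 3′ UTR, TFRC held 4 cores, and 128 of 18983 genes (0.674%) held at least 1. SLC11A2, IREB2, ACO1 and STEAP3 had no match to these letters. The pattern is strict, so the lack of a match does not show that a gene lacks an element. EPAS1, described below, is known as an mRNA with an element and had no match either. The 29 bases around each core are printed 5′ to 3′ from the GENCODE transcripts (build GRCh38, which is hg38), with the bulged C and the loop in capitals.
SLC40A1 5′ UTR, chr2:189580661-189580689, minus strand: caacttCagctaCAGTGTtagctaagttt
FTH1 5′ UTR, chr11:61967574-61967602, minus strand: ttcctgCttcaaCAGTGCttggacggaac
FTL 5′ UTR, chr19:48965335-48965363, plus strand: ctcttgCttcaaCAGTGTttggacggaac
TFRC 3′ UTR, chr3:196050979-196051007, minus strand: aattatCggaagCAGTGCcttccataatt
TFRC 3′ UTR, chr3:196050575-196050603, minus strand: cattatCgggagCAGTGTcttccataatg
TFRC 3′ UTR, chr3:196050510-196050538, minus strand: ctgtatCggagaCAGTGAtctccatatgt
TFRC 3′ UTR, chr3:196050463-196050491, minus strand: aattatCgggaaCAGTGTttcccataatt

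The loops of the cores begin at base 211 of the SLC40A1 transcript, base 71 of the FTH1 transcript and base 47 of the FTL transcript. In TFRC they begin 947, 1351, 1416 and 1463 bases after the stop codon. All 3 coding transcripts of TFRC carried the 4 cores, and 5 of the 6 coding transcripts of FTH1 carried theirs. SLC40A1 and FTL each had 1 coding transcript in the basic annotation. The table gives 1 value per locus, so transcripts with and without a core were not told apart.

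**Figure D1:**
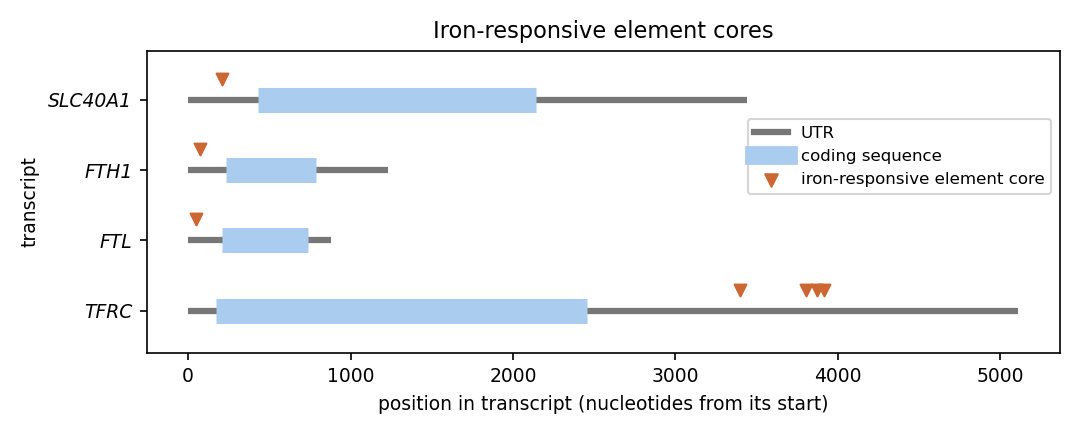
The map draws 1 annotated coding transcript each of SLC40A1, FTH1, FTL and TFRC to scale, in nucleotides from the transcript start, with thin bars for UTRs, thick bars for coding sequence and triangles for the loops of the cores. The cores lie before the coding sequence in SLC40A1, FTH1 and FTL, and TFRC has 4 after it.

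The exporter gave the difference that stood out among the members. SLC40A1 was at 0.900 FPKM in the parental library and at 14.9 FPKM in the cisplatin-resistant one. The resistant value was 16.6 times the parental one, and it was higher by 14.0 FPKM. On the log2 scale with 1 FPKM added to each value, which holds down differences of weakly expressed genes, the ratio of resistant to parental was 3.07. That was the 15th highest of 12405 genes. A ratio of 1 or more, which is 2-fold, was reached by 3.28% of all genes, and -1 or less by 2.70%. Among the 620 genes of like mean level, 95% lay between -0.96 and 1.46. The parental transcript was scarce, with 97.9% of the genes compared above it, whereas 48.7% of genes lay above the resistant value. Because the parental value is under 1 FPKM, the log2 ratio depends on the amount added: it was 3.91 with 0.1 FPKM and 1.75 with 5 FPKM. The gene (ENSG00000138449.10) lies on the minus strand of chromosome 2, from 189560579 to 189583758, and its locus fell in the minus-strand part of the table. GENCODE names no SLC40A1 pseudogene.

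The uptake genes were each within 2-fold. TFRC, the transferrin receptor, was at 56.7 FPKM in the parental library and 65.5 FPKM in the resistant one, a log2 ratio of 0.21. Its gene spans chromosome 3 from 196027183 to 196082189, minus strand. SLC11A2, the endosomal iron transporter, had 24.9 and 27.1 FPKM (log2 ratio 0.12) and lies on chromosome 12 from 50979401 to 51028566. For both, the resistant value was the higher by a small margin, 15.6% for TFRC and 9.07% for SLC11A2. STEAP3, the endosomal ferrireductase, had 12.4 and 19.2 FPKM (log2 ratio 0.59), an excess of 54.1%. After SLC40A1 this was the largest difference of the 8 genes, and 7.59% of all genes had a higher ratio. STEAP3 lies on the plus strand of chromosome 2 from 119223831 to 119265652. All 3 ratios lay within the range that held 95% of genes of like level, which was -1.08 to 1.13 for STEAP3, -0.87 to 0.64 for TFRC and -0.84 to 0.74 for SLC11A2.

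The ferritin chains were the most abundant of the 8 transcripts and were somewhat higher in resistant cells. FTL, the light chain that favours mineral formation, went from 961 FPKM (parental) to 1118 FPKM (resistant), a log2 ratio of 0.22. FTH1, the heavy chain with the ferroxidase site, had 309 and 384 FPKM (log2 ratio 0.31). In added FPKM these were the largest gains of the set, 157 for FTL and 75.0 for FTH1, although in proportion they were 16.3% and 24.3%. Both lay within -0.75 to 0.69, the range of 95% of genes in the highest of 20 level bins. FTH1 and FTL together made up 90.0% of the summed FPKM of the 8 genes in parental and 90.2% in resistant cells. FTL was at 3.11 times the FPKM of FTH1 in parental and 2.91 times in resistant cells. FTH1 lies on chromosome 11 from 61959718 to 61967660, and FTL on chromosome 19 from 48965301 to 48966878. GENCODE names 25 FTH1 and 16 FTL pseudogenes, near-copies that can share reads with them and were not analysed here. How reads that map to several places were counted is not given in the sources used here, so the ferritin levels are uncertain to that extent. FTH1 also overlaps BEST1 on the opposite strand, which was not analysed here. The part of either in the ferritin values was not tested.

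The 2 sensors of iron were the only members lower in resistant cells. IREB2, which encodes iron regulatory protein IRP2, was at 29.7 FPKM in the parental library and 24.4 FPKM in the resistant one, a log2 ratio of -0.28. ACO1, which encodes IRP1, the protein that is a cytosolic aconitase when it holds an iron-sulfur cluster, had 15.8 and 12.7 FPKM (log2 ratio -0.29). The differences were -18.0% and -19.4%, nearly the same in proportion, and IREB2 stayed at 1.88 and 1.91 times the FPKM of ACO1. Genes with a still lower ratio made up 19.4% of all genes for IREB2 and 18.2% for ACO1, and both lay inside the range of genes of like level. IREB2 is on chromosome 15 from 78437431 to 78501456 and ACO1 on chromosome 9 from 32384603 to 32454769, both on the plus strand.

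**Figure D2:**
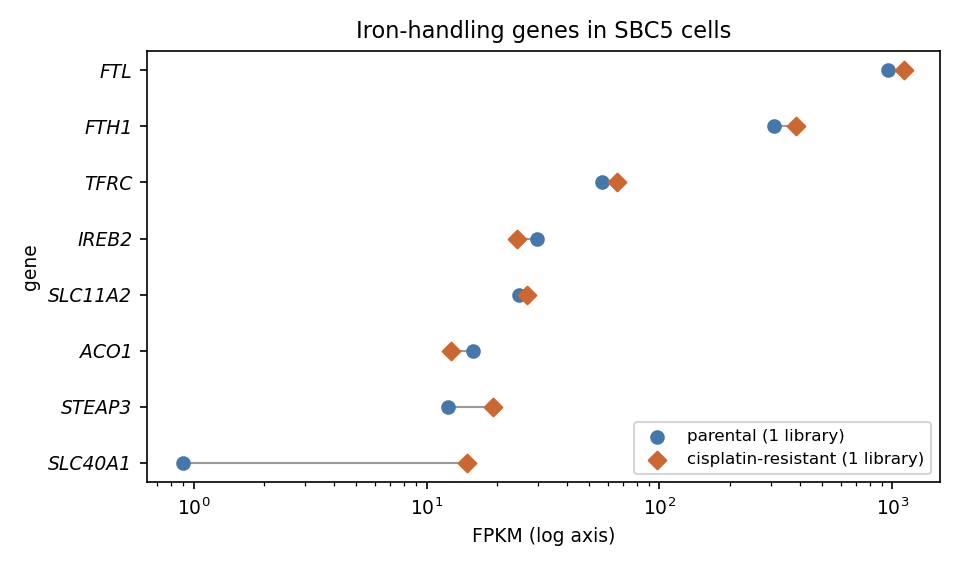
The plot gives the FPKM of each gene on a log axis, as a circle for the parental and a diamond for the resistant library, joined by a line. SLC40A1 moves from 0.900 to 14.9 FPKM, and the lines of the other 7 genes are short, with IREB2 and ACO1 lower in resistant cells.

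In parental cells the order of FPKM from high to low was FTL, FTH1, TFRC, IREB2, SLC11A2, ACO1, STEAP3 and SLC40A1. In resistant cells it was FTL, FTH1, TFRC, SLC11A2, IREB2, STEAP3, SLC40A1 and ACO1. The top 3 places were the same, and without replicates it cannot be said which neighbours in either order differ beyond their error. The exporter gained on every other member. TFRC was at 63.0 times the FPKM of SLC40A1 in parental and at 4.40 times in resistant cells, and FTH1 at 343 and 25.7 times. Among the others the proportions moved little: FTH1 was at 5.44 and 5.85 times TFRC, and TFRC at 2.28 and 2.41 times SLC11A2. TFRC to STEAP3 went from 4.56 to 3.42.

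Of the 8 genes, 1 was at least 2-fold higher in resistant cells and 0 were at least 2-fold lower. The shares over all genes were 3.28% higher and 2.70% lower. The log2 ratio of the 8 members was above 0 in 6 and below 0 in 2, with a median of 0.21. Leaving SLC40A1 out, the other 7 lay between -0.29 and 0.59. Over all genes compared, the median was -0.04 and 44.4% lay above 0. The members were proposed from these same values, so nothing is read from their count.

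**Figure D3:**
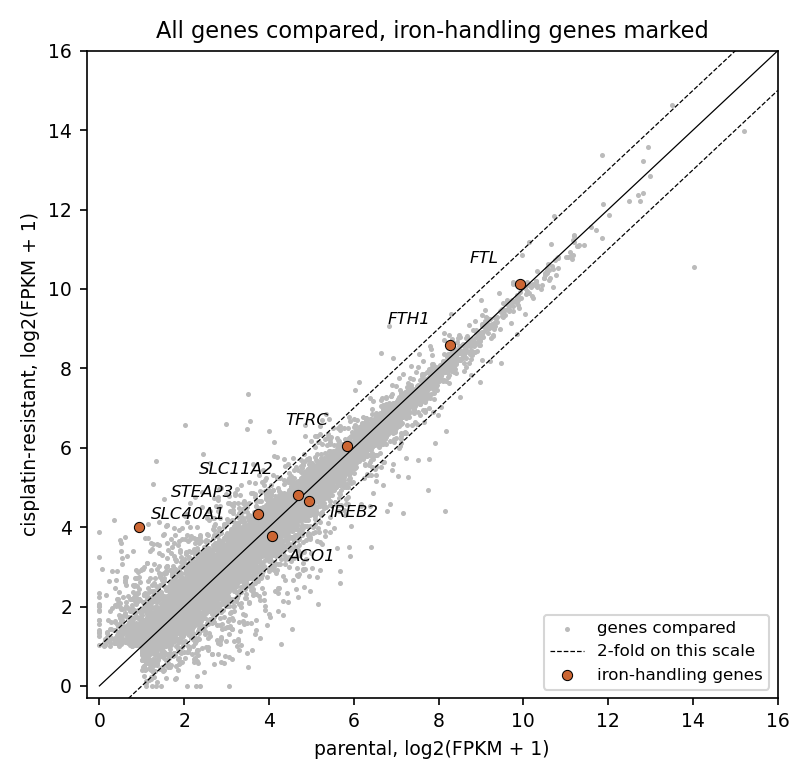
Each grey point is 1 of the 12405 genes compared, with log2(FPKM + 1) in parental cells on the x axis and in resistant cells on the y axis, and the 8 iron-handling genes are marked. SLC40A1 lies far above the upper dashed 2-fold line, and the other 7 lie between the dashed lines.

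The wider iron pathway was described with 11 lists of 147 genes in all, of which 121 could be compared. Of these 121 genes, SLC40A1 and EPAS1 were at least 2-fold higher in resistant cells and 0 were at least 2-fold lower, where all genes gave 3.28% and 2.70%. The median log2 ratio was -0.02 against -0.04 over all genes, with 58 above 0 and 63 below. Which side held more genes depended on scaling. With columns scaled to equal sums 44 lay above 0 and 77 below, with medians of -0.11 here and -0.12 over all genes. Scaled by the median ratio, 63 lay above 0 and 58 below. Without the 8 members, chosen with their ratios known, 113 genes as deposited had a median of -0.05, 52 above 0 and 61 below. EPAS1 was the 1 of these past 2-fold. EPAS1, which encodes the oxygen-regulated transcription factor HIF-2 alpha and is itself known as an mRNA with an iron-responsive element, had 5.90 and 26.2 FPKM (log2 ratio 1.98). It ranked 77th of all genes and lies on chromosome 2 from 46293667 to 46386703. The core pattern used here found no match in its UTRs. The related HIF1A had 60.2 and 51.3 FPKM (-0.23), and its partner ARNT had 75.2 and 69.0 FPKM (-0.12).

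Uptake and endosomal release had 8 of 16 genes compared, 0 past 2-fold and a median of 0.14. SLC39A14, a plasma membrane carrier that also takes up iron, had 99.3 and 101 FPKM (0.02), and SLC39A8, its relative, had 10.6 and 6.90 FPKM (-0.56). None of the 11 compared genes of transferrin receptor trafficking passed 2-fold as deposited. SNX3, a sorting nexin that returns the receptor from endosomes, came nearest, with 435 and 228 FPKM (-0.93). It lay outside the range of 95% of genes of like level, -0.75 to 0.69. SNX3 passed 2-fold with equal sums (-1.01) but not after division by the median ratio of all genes. The retromer subunit VPS35 had 115 and 136 FPKM (0.24).

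Storage, iron chaperones and ferritin turnover had 8 of 11 genes compared, 0 past 2-fold and a median of 0.07, which was -0.02 with equal sums. GLRX3, a cytosolic glutaredoxin, had 719 and 723 FPKM (0.01), and PCBP1, a chaperone that hands iron to ferritin, had 301 and 266 FPKM (-0.18). In the export list, 3 of 8 genes were compared. Besides SLC40A1 these were the haem exporter FLVCR1, with 15.8 and 14.6 FPKM (-0.10), and APP, with 144 and 131 FPKM (-0.13). The ferroxidases CP, HEPH and HEPHL1, which act with ferroportin, were not analysed here.

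All 6 genes of the list on iron regulatory proteins and their control were compared. All 6 lay below 0 as deposited, from -0.29 to -0.05 with a median of -0.09. After division by the median ratio of all genes, 5 of 6 did. Over all genes as deposited, 55.6% lay below 0, with a median of -0.04. FBXL5, the iron-sensing adaptor that marks IRP2 for degradation, had 12.2 and 11.8 FPKM (-0.05). Among transcription factors described at iron genes, 11 of 12 were compared, with a median of 0.28. NFE2L2 (NRF2), an activator of ferritin and ferroportin genes, had 65.3 and 83.9 FPKM (0.36), and BACH1, a repressor at the same elements, had 16.3 and 13.0 FPKM (-0.31). Both lay within 2-fold.

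Hepcidin, the hormone that removes ferroportin from the cell surface, is encoded by HAMP, which was not analysed here. Of 22 genes of the hepcidin and BMP list 17 were compared, and 0 passed 2-fold. ID1, a target of BMP signalling, had 38.8 and 74.0 FPKM (0.92), and the inhibitor SMAD7 had 4.26 and 2.26 FPKM (-0.69). The haem list had 21 of 23 genes compared, 0 past 2-fold and a median of 0.02, or -0.06 with equal sums. HMOX1, the oxygenase that frees iron from haem, had the highest log2 ratio of them (0.43), with 20.2 and 27.5 FPKM. Iron-sulfur cluster assembly gave medians of -0.07 for 23 mitochondrial genes and -0.10 for 9 cytosolic genes, with 0 past 2-fold in either.

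**Figure D4:**
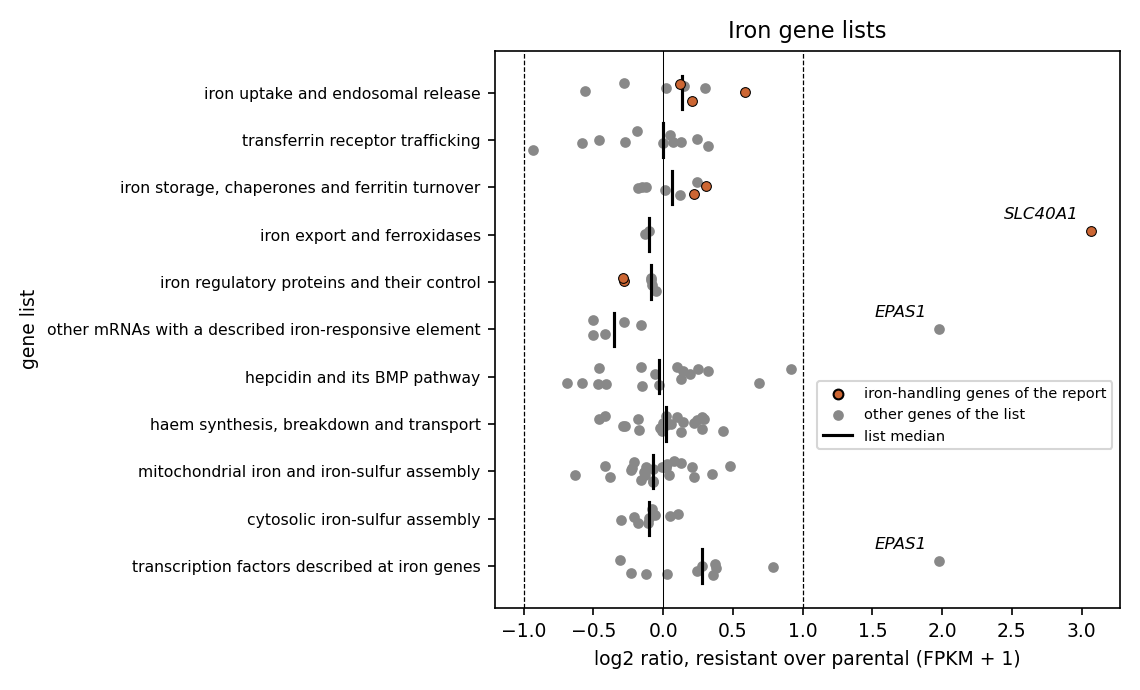
Each point is the log2 ratio of 1 compared gene in 1 of the 11 lists, black bars are list medians and dashed lines mark 2-fold, with EPAS1 drawn in both lists that hold it. SLC40A1 at 3.07 and EPAS1 at 1.98 lie beyond the dashed lines and all other points lie between them.

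The position of SLC40A1 was examined to see whether its difference was shared along the chromosome. The 6 compared genes whose starts lie nearest were within 2-fold, with log2 ratios from -0.81 to 0.16. ASNSD1, the nearest, starts 77.6 kb upstream and had 19.3 and 19.5 FPKM (0.01), and WDR75, the nearest downstream, had 524 and 534 FPKM (0.03). ANKAR, 90.5 kb upstream, was lower in the resistant library, with 2.08 and 0.753 FPKM (-0.81). Within 3 Mb to each side, these 6 included, 21 genes were compared. Of them, 3 were higher by 2-fold or more and 1 was lower by that much, where all genes gave 3.28% and 2.70%. The median log2 ratio of the 21 was 0.18, against -0.04 over all genes. COL3A1, a fibrillar collagen gene 609.4 kb downstream, had 1.18 and 7.51 FPKM (1.97). CALCRL, a peptide hormone receptor gene, had a listed value of 0 in the parental library and 3.74 FPKM in the resistant one, and FAM171B had 16.1 and 39.0 FPKM (1.23). GULP1, an adaptor of cell engulfment between COL3A1 and CALCRL, was lower, with 71.5 and 23.0 FPKM (-1.59). Gene starts and distances are from GENCODE release 29.

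**Figure D5:**
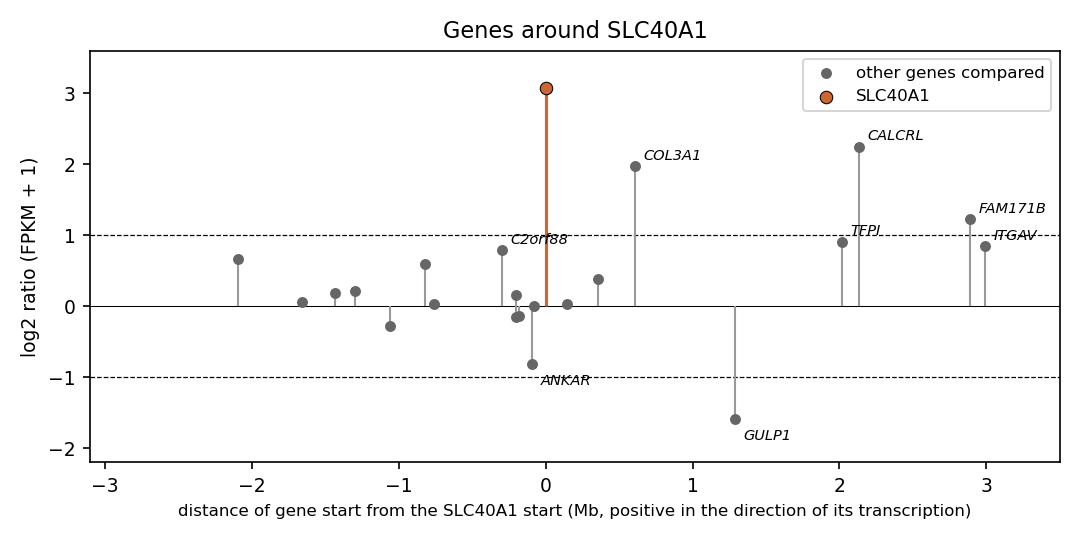
The plot places each compared gene within 3 Mb by the distance of its start from that of SLC40A1, positive in the direction of SLC40A1 transcription, with its log2 ratio on the y axis and dashed lines at 2-fold. The 6 genes nearest to SLC40A1 lie between the dashed lines, from -0.81 for ANKAR to 0.16, and COL3A1, CALCRL and FAM171B lie above the upper line on the downstream side, where GULP1 lies below the lower one.

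Macrophages, erythroid cells and hepatocytes are among the cell types best known for ferroportin, so markers of other cells were checked. In bulk RNA, fewer cells of a type and less RNA per cell cannot be told apart. None of 10 macrophage, 6 hepatocyte and 5 endothelial markers was measured here. Of 9 erythroid markers HBB alone was, at 2.69 FPKM (parental) and 0.472 FPKM (resistant), the reverse of SLC40A1. Of 7 fibroblast markers 3 were measured. The collagen genes COL3A1 (values given with the neighbours of SLC40A1) and COL1A1 (2.34 and 3.85 FPKM, 0.54) were higher in the resistant library, like SLC40A1, and the receptor PDGFRA was lower (48.0 and 10.1 FPKM, -2.14). Their summed level was 51.5 FPKM (parental) and 21.5 FPKM (resistant). Of 6 epithelial markers 2 were measured: CDH1, the adhesion molecule E-cadherin, at 0.536 and 4.81 FPKM (1.92), and the keratin gene KRT8 at 2.09 and 2.36 FPKM (0.12). The summed epithelial level was 2.63 FPKM (parental) and 7.17 FPKM (resistant). The part of fibroblast and epithelial genes in the SLC40A1 value was not tested. For the cell line itself, 7 of 12 neuroendocrine markers were measured, 5 above 0 and 2 below. UCHL1 had 251 and 259 FPKM (0.05), DLL3 19.3 and 18.9 FPKM (-0.03) and SYP 8.56 and 8.62 FPKM (0.01). NCAM1 had 0.821 and 1.64 FPKM (0.53), CHGB 0.702 and 1.19 FPKM (0.36) and ENO2 8.18 and 9.40 FPKM (0.18). The granule protein gene SCG2 was the 1 past 2-fold, at 109 and 20.1 FPKM (-2.38), while INSM1 and CHGA were not analysed here. Of 5 markers of small cell lung cancer without neuroendocrine features 4 were measured, all within 2-fold. YAP1 had 76.6 and 84.7 FPKM (0.14) and REST 31.8 and 39.1 FPKM (0.29). MYC had 44.2 and 43.1 FPKM (-0.03) and the vimentin gene VIM 389 and 242 FPKM (-0.68). All loci together came to 1019555 FPKM in parental cells and 1081047 FPKM in resistant cells. MTRNR2L loci took 6.84% and 16.2% of these sums, and scaling to equal sums without them left SLC40A1 at 3.13.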

How the data were processed

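The authors' deposited table holds FPKM per locus, 1 column for each library, per the file headers. The submitters' processing notes name TopHat2 and hg38. What computed the FPKM, and on which annotation, is not given in the sources used here. Libraries were strand-preserving, per the labels' protocols. Columns were matched by the sample descriptions, and 0 were left unmatched. Of 19217 loci, 2919 unnamed and 23 named as dates were left out. Where a name had several loci, the one with the highest mean was used. Plus, minus and strandless parts were inferred from the order of the loci, with break points chosen by annotated strands. Of 11737 loci in the plus and minus parts with an annotated strand, 98.7% lay on it, which the choice partly builds in. The strandless part held 6344 loci.

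Ratios are log2 of (resistant + 1) over (parental + 1), in FPKM, for genes reaching 1 FPKM in at least 1 library. A limit of 1 or -1 replaced a test, and no p-value was computed. Depth is unknown, since no counts were given. Of 7591 low loci (above 0 and below 5 FPKM in each library), 52.9% showed a ratio of whole numbers up to 20, within a relative tolerance of 2e-05, after division by 0.996, the relative worth of 1 read.

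Members and lists were chosen with earlier results of these data known. Named genes were all 8 members and list genes past 2-fold, at the 3 highest levels or at the extremes of their list. Marker genes, ferroxidases and chromosomal neighbours were named outside this rule, after values were seen. Alternatives were pseudocounts of 0.1 and 5, filters, scalings, summed or strand-assigned loci and a 4-fold limit. The procedure was tested on simulated data with 200 changed genes. Python 3.11.15, NumPy 2.4.6, pandas 2.3.3 and matplotlib 3.10.9 were used.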

Additional observations from a re-analysis of the deposited data

How the results depend on the processing

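SLC40A1 stayed at least 2-fold higher in resistant cells under the other pseudocounts and scalings. It lay between 1.75 with a pseudocount of 5 FPKM and 3.91 with 0.1 FPKM. The other 7 members kept their sign and stayed within 2-fold under these pseudocounts and scalings, and EPAS1 stayed past 2-fold. The filters and the summed or strand-assigned loci could not change these genes. Each has 1 locus, in a strand-assigned part and above 5 FPKM in at least 1 library. Over all genes, 407 were higher and 335 lower, and with equal sums 357 were higher and 380 lower. A pseudocount of 0.1 FPKM gave 614 higher, and 5 FPKM gave 142 higher and 136 lower. The 4-fold limit left 76 higher and 60 lower, and of the iron pathway genes 1 higher, SLC40A1. With columns scaled to an equal sum, 1 iron pathway gene, SNX3, was lower past 2-fold, against 0 as deposited. That scaling moved the median of the 121 pathway genes from -0.02 to -0.11 with that of all genes from -0.04 to -0.12, and left 44 pathway genes above 0. Scaling by the median ratio gave 63 above 0 and summed loci also 63. Equal sums without the MTRNR2L loci, which was added after seeing the data, gave 66. No paired analysis was possible because each group has 1 library. No replicate could be left out, and the number of reads behind the 0.900 FPKM of SLC40A1 in parental cells is unknown.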

Other observations

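Other genes that hold the element of ferroportin and ferritin were described as a list. Of the 31 genes with a core in a 5′ UTR, 19 were compared, 3 of them SLC40A1, FTH1 and FTL. The other 16 had a median log2 ratio of -0.22, with 6 above 0 and 10 below. Past 2-fold among these 16 were ENC1 (3.05 FPKM parental, 8.24 FPKM resistant, 1.19) and CSF1 (3.59 and 1.25 FPKM, -1.03). Both were named after their values were seen and were within 2-fold with a pseudocount of 5 FPKM, at 0.72 and -0.46. Of the 128 genes with a core in a 3′ UTR, 97 were compared, TFRC included, 0 passed 2-fold and the median was -0.04. Of these 97, 41 lay above 0 and 56 below. For scale, a log2 ratio of 1 was met or exceeded by 3.28% of the 12405 genes, and 2.70% were at -1 or under. The median of those 12405 was -0.04, and 44.4% of them had a ratio above 0.

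The genes whose 2 values lay nearest to those of SLC40A1, by Euclidean distance of log2(FPKM + 1) over 2 libraries, were IRX2, TOX, LINC00886, LINC00472 and DEPTOR, at distances from 0.24 to 0.49. IRX2, a homeobox gene, had 1.22 and 15.9 FPKM (log2 ratio 2.93). TOX, an HMG-box factor gene, had 1.09 and 12.2 FPKM (2.66), and DEPTOR, an inhibitor of mTOR, had 1.31 and 11.0 FPKM (2.38). With 2 libraries such likeness means only like levels in both.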
